A study of Mus musculus with 18 samples.

Results

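The genes of collagen chains and of integrin chains were followed in AT3 cells treated with 2 inhibitors of the P300/CBP acetyltransferases. Members were the rows of the count table that are protein-coding genes named Col, number, a, number, or named Itga or Itgb with a number or letter. Genes with such a name for a binding partner or a like protein (Itgb1bp1, Itgb1bp2, Itgb3bp, Itgbl1 and Col4a3bp) were left out. This gave 71 genes of 43629 in the table, 44 of collagen chains and 27 of integrin chains.

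Collagens are secreted or membrane-bound proteins of 3 chains wound into a helix, and they build the fibres, sheets and filaments of the extracellular matrix. Integrins are pairs of an alpha and a beta chain in the cell membrane, and they bind collagens, laminins, fibronectin and other matrix proteins outside the cell and the actin or keratin cytoskeleton inside it. In epithelial tissue, laminin-binding integrins and the membrane collagen of type XVII hold cells to the basement membrane.

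AT3 is a mouse mammary carcinoma line grown in culture. Cells received DMSO, A-241 at 250 nM or A-485 at 1000 nM for 1 h, and then recombinant mouse IFNγ at 1 ng/mL or none for a further 2 h, so that all 6 conditions ended at 3 h: DMSO, A-241, A-485, IFNγ, A-241 with IFNγ and A-485 with IFNγ. RNA of 3 libraries per condition was read by QuantSeq, which sequences the 3′ ends of transcripts, and the 18 libraries held between 3417167 and 7856830 counts. The labels call the triplicates biological and the methods call them technical, so a p-value here measures the spread between libraries, which may be technical. The 2 inhibitors were given at different doses, and dose and compound cannot be told apart.

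Levels are given as CPM (counts relative to library size) scaled by TMM factors, for each library in the order of its replicate number. Reads come from transcript ends and a CPM is not divided by length, so levels are compared between conditions and not between genes. A gene was called when its adjusted p in edgeR's quasi-likelihood test, over all 11964 genes tested, was under 0.01. The effect of an inhibitor averaged over both backgrounds is the mean of its difference from DMSO and of its difference, with IFNγ, from IFNγ alone. In bulk RNA, fewer cells that express a gene and less RNA per cell cannot be told apart.

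Of 7 epithelial markers checked, 6 passed the filter on low counts, among them Cdh1 (E-cadherin) and Krt14 and Krt18 (keratins), and Krt19 had 1 count in all libraries together. Their summed level was 963 to 1770 CPM over all libraries. It was 1520 to 1770 CPM with DMSO and 980 to 1020 CPM with A-241. Among these markers, Krt14 had a mean of 711 CPM with DMSO and 252 CPM with A-241, and Epcam had 69 and 69.8 CPM. Fibroblast markers summed to 0.21 to 4.48 CPM, with Lum (lumican) at 0 in every library, and endothelial markers to 0.571 to 4.12 CPM, with Tek and Cdh5 at 0. Leukocyte markers summed to 1.52 to 38.9 CPM, with Adgre1 at 0. DMSO replicate 3 and IFNγ replicate 2 stood apart from their groups. The RNA Gm42418 took 20.1% and 23% of their counts, and their deviations over genes had a root mean square of 1.1 and 1.13 on the log2 scale. Inhibitor effects on members are therefore also given without these libraries where stated. Effects on other genes are given with all 18 libraries only.

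Of the 71 genes, 30 passed the filter on low counts and were tested, 33 had some counts but too few, and 8 had none. The 8 with no count in any library were Col6a4, Col6a5, Col10a1, Col14a1, Col24a1, Col26a1, Itgad and Itgax. For a count of 0, the floor of 3 counts corresponds to 0.382 CPM in the deepest library and 0.878 CPM in the shallowest, and this covers counting error only. In all, 19 of 44 collagen genes and 11 of 27 integrin genes were tested.

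**Figure D1:**
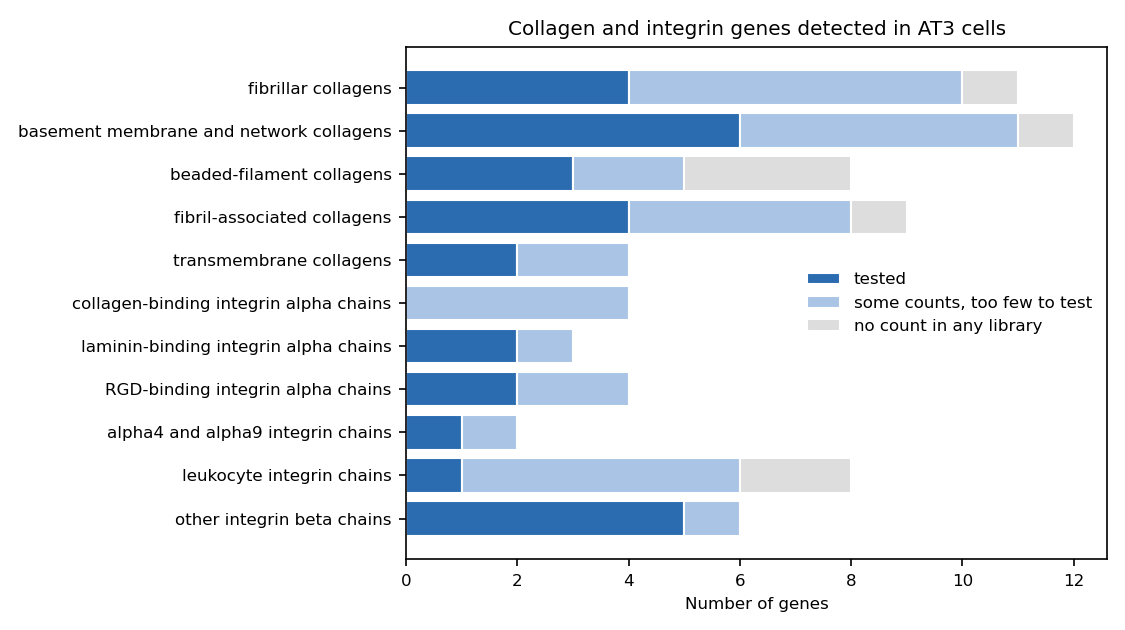
Number of collagen and integrin genes (horizontal axis) in each role group (vertical axis), split into genes tested, genes with some counts but too few to test, and genes without a count in any of 18 libraries. None of the 4 collagen-binding integrin alpha chains was tested, while 5 of 6 beta chains outside the leukocyte group were.

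Among fibrillar collagens, 4 of 11 genes were tested (Col3a1, Col5a1, Col5a3 and Col11a1). The chains of type I collagen, the main collagen of connective tissue, were near 0. Col1a1 had at most 7 counts and Col1a2 at most 2 counts in any library. The network and basement membrane group gave 6 tested genes of 12, namely Col4a1, Col4a2, Col4a5 and Col4a6 of the type IV sheet, Col7a1 of anchoring fibrils and Col18a1. Col4a1 and Col4a2 lie head to head with exons that overlap at their 5′ ends, and whether they share reads was not tested.

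The group labelled beaded-filament, which holds type VI chains with types XXVI and XXVIII, gave 3 tested genes of 8 (Col6a1, Col6a2 and Col6a3). Collagens that decorate fibrils gave 4 of 9 (Col9a1, Col9a3, Col12a1 and Col16a1), and transmembrane collagens 2 of 4 (Col17a1 and Col25a1).

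All 4 alpha chains that bind collagen were too low to test. Their largest count in a library was 5 for Itga1, 2 for Itga2, 2 for Itga10 and 7 for Itga11. Itga3 and Itga6 were tested of the 3 laminin-binding alpha chains, Itga8 and Itgav of the 4 chains that bind the RGD motif, and Itga9 of the pair with Itga4. Itga5, the alpha chain of the main fibronectin receptor, had at most 6 counts. The beta chains Itgb1, Itgb3, Itgb4, Itgb5 and Itgb8 were tested, and Itgb6 had at most 13 counts. Itgam was the one leukocyte chain of 8 that passed the filter.

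A-241 lowered 9 of the 30 tested genes when averaged over both backgrounds, and raised none. They were Itga8, Col17a1, Itga6, Itgb3, Col12a1, Col9a1, Itgb8, Itga9 and Col6a2, with changes of −34.1% (Col17a1) to −60.4% (Itgb8). Among all genes tested, 7.05% were called lower with A-241 and 3.39% higher. Of the 30 members 28 had a log2 fold change below 0 (26 when scaled by total counts), and their median log2 fold change was −0.62, against 0 over all genes. Without DMSO replicate 3 and IFNγ replicate 2, 26 members were below 0, with a median of −0.49. The other values here are from all libraries. Of all genes, 49.8% were below 0. At 26 of the 30, at least 3 libraries without inhibitor and 3 with A-241 were past the filter's 2.05 CPM, and these had a median of −0.64. Itgb8 was past it in 4 libraries without inhibitor, 1 with A-241 and 0 with A-485, so its differences from both inhibitors are in part set by the filter.

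**Figure D2:**
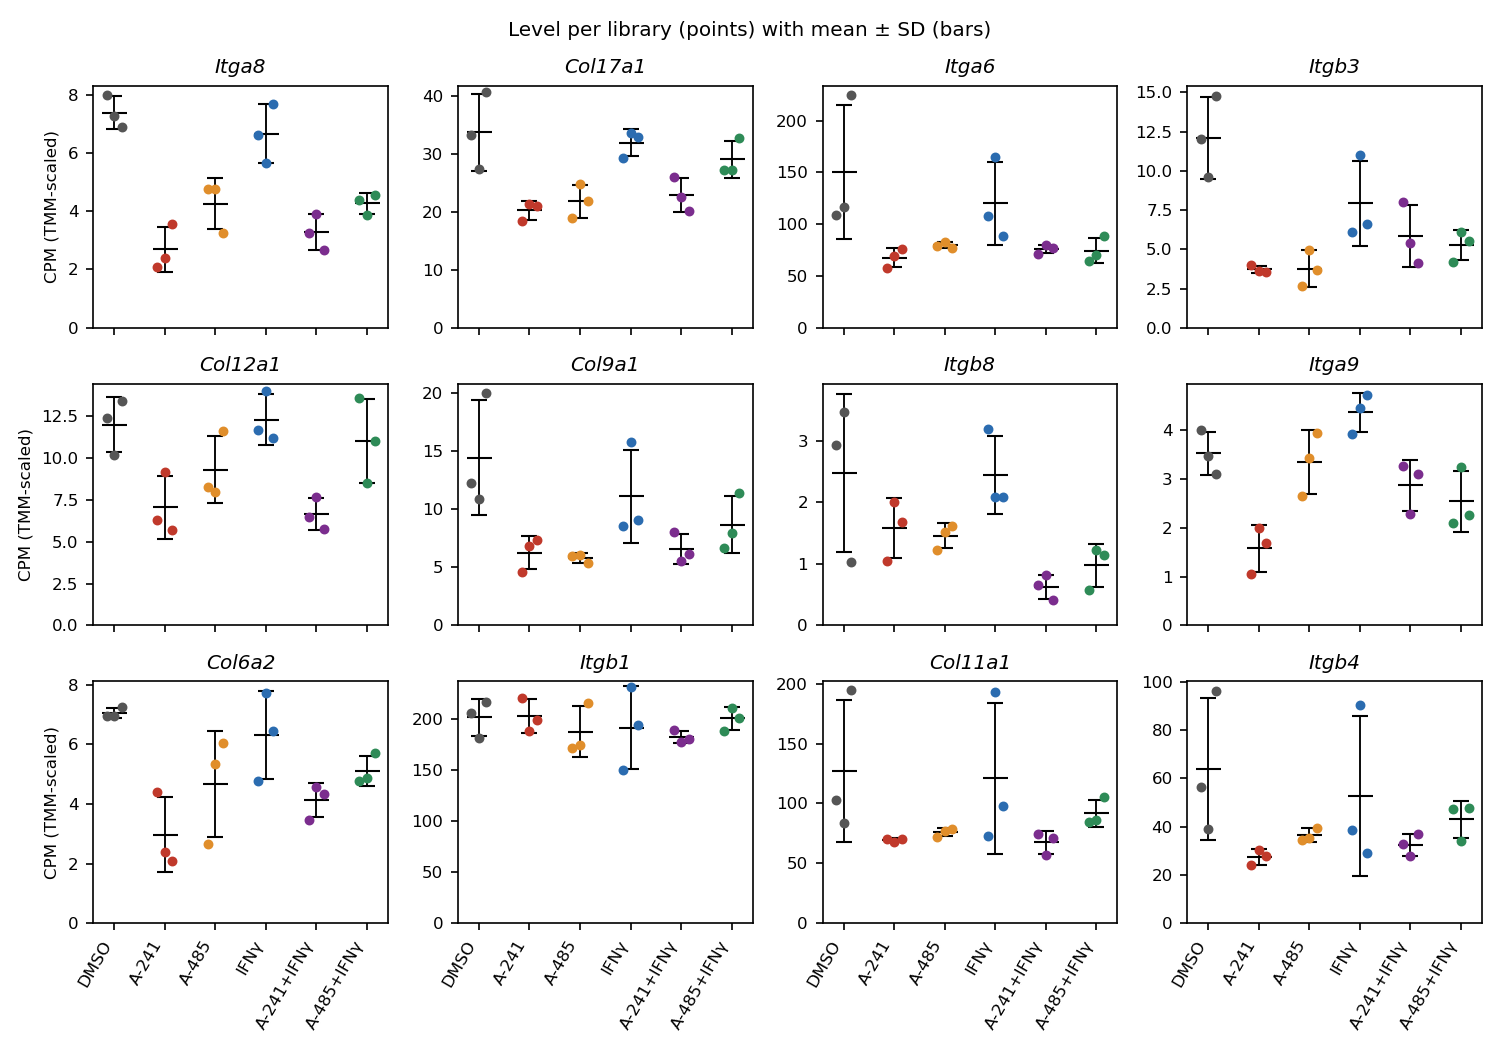
Level in CPM (vertical axis, from 0) in each library (points) with the mean ± SD of 3 libraries (black bars), by condition (horizontal axis), for the 9 genes called with A-241 and the 3 most counted tested genes outside them. In Itga8, Col17a1, Itga6, Col12a1, Col9a1 and Col6a2 the 6 libraries with A-241 lie below the 6 without inhibitor, and in Itgb1 they overlap.

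Itga8 is an alpha chain that pairs with Itgb1 and binds RGD proteins such as nephronectin. Its level was 7.99, 7.25 and 6.9 CPM with DMSO and 2.1, 2.4 and 3.57 CPM with A-241. With IFNγ it was 6.62, 5.65 and 7.68 CPM, and with A-241 and IFNγ 3.26, 3.9 and 2.68 CPM. All 6 libraries with A-241 lay below the 6 without inhibitor. The averaged log2 fold change was −1.23 ± 0.18 (SE; adjusted p = 0.000106, edgeR), and without DMSO replicate 3 and IFNγ replicate 2 it was −1.32. This call was kept in all 11 alternative settings and without each of 12 libraries. Against DMSO alone Itga8 fell by 1.45 on the log2 scale (adjusted p = 0.00151, edgeR), a call that ended without A-241 replicate 1 (adjusted p = 0.0134) or replicate 2 (adjusted p = 0.0126). Its exons overlap those of E030013I19Rik on the other strand, which had 35 counts against 444 for Itga8.

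Itgb3, the beta chain of the vitronectin receptor with Itgav, had 12, 9.61 and 14.8 CPM with DMSO. It had 3.99, 3.6 and 3.57 CPM with A-241 and 2.64, 4.95 and 3.71 CPM with A-485, so neither inhibitor group overlapped DMSO. With IFNγ it had 6.13, 11 and 6.63 CPM, with A-241 and IFNγ 8.03, 5.37 and 4.12 CPM, and with A-485 and IFNγ 4.2, 6.1 and 5.5 CPM. The A-241 libraries overlapped IFNγ alone there, and the A-485 libraries lay just below it. The averaged log2 fold change with A-241 was −1.05 ± 0.22 (SE; adjusted p = 0.00259, edgeR), and it was called without each of 12 libraries. Without DMSO replicate 3 and IFNγ replicate 2 together it was −0.85 (adjusted p = 0.00393, edgeR). In that fit the loss lay on the background without IFNγ, at −1.56 against DMSO. With IFNγ it was −0.14 ± 0.28 (SE; adjusted p = 0.793, edgeR). With all libraries, the log2 fold change against DMSO was −1.68 ± 0.31 (SE; adjusted p = 0.00234, edgeR). That call ended without A-241 replicate 1, 2 or 3, with adjusted p of 0.0124, 0.0151 and 0.015.

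Itgb8, whose protein pairs with Itgav and activates latent TGF-β, had the largest averaged fold change of the 9 but the fewest counts. It had 2.94, 3.47 and 1.03 CPM with DMSO and 1.05, 2 and 1.68 CPM with A-241, which overlap. With IFNγ it had 3.19, 2.08 and 2.09 CPM, and with A-241 and IFNγ 0.651, 0.813 and 0.412 CPM, which do not. The averaged log2 fold change was −1.34 ± 0.31 (SE; adjusted p = 0.00586, edgeR), and −1.55 without DMSO replicate 3 and IFNγ replicate 2. Leaving out 1 library ended the call for 8 of 12 libraries (DMSO replicates 1 and 2, A-241 replicates 1 and 3, IFNγ replicate 1, and all 3 with A-241 and IFNγ), with adjusted p of 0.0113 to 0.0211.

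Itga6, the alpha chain of the laminin receptors of hemidesmosomes and focal contacts, had 109, 117 and 225 CPM with DMSO and 57.7, 69.4 and 75.7 CPM with A-241. With IFNγ it had 108, 165 and 88.1 CPM, and with A-241 and IFNγ 71.4, 79.7 and 77.2 CPM. The highest value of each group without inhibitor was in a library that stood apart. The log2 fold change was −0.90 ± 0.18 (SE; adjusted p = 0.00238, edgeR) with all libraries and −0.58 without DMSO replicate 3 and IFNγ replicate 2, where it was still called (adjusted p = 0.000355). Itga9, an alpha chain that binds tenascin-C and other ligands, had 4, 3.47 and 3.1 CPM with DMSO and 1.05, 2 and 1.68 CPM with A-241. With IFNγ it had 3.92, 4.46 and 4.71 CPM, and with A-241 and IFNγ 3.26, 2.28 and 3.09 CPM. It fell by 0.88 ± 0.20 on the log2 scale (SE; adjusted p = 0.006, edgeR), but 7 of 12 left-out libraries ended the call (DMSO replicates 1 and 2, A-241 replicates 1 and 3, IFNγ replicate 3, and replicates 1 and 2 with A-241 and IFNγ), with adjusted p of 0.01 to 0.0202. Its 3 counts with A-241 (5, 10 and 8) equal those of Itgb8.

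Col17a1 is the transmembrane collagen of hemidesmosomes. It had 33.4, 27.4 and 40.7 CPM with DMSO, and 18.5, 21.4 and 21 CPM with A-241. It had 29.3, 33.6 and 33 CPM with IFNγ, and 26.1, 22.6 and 20.2 CPM with A-241 and IFNγ. The groups with and without A-241 did not overlap. The log2 fold change was −0.60 ± 0.12 (SE; adjusted p = 0.00209, edgeR), it was −0.53 without DMSO replicate 3 and IFNγ replicate 2, and the call was kept without each of 12 libraries.

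Col12a1 and Col9a1 encode fibril-associated chains. Col12a1 had 12.4, 10.2 and 13.4 CPM with DMSO and 6.29, 9.19 and 5.68 CPM with A-241. With IFNγ it had 11.7, 14 and 11.2 CPM, and with A-241 and IFNγ 6.51, 7.65 and 5.76 CPM. It fell by 0.81 ± 0.17 on the log2 scale (SE; adjusted p = 0.0027, edgeR), and without A-241 replicate 3 its adjusted p was 0.01, at the threshold. Col9a1 had 12.2, 10.9 and 20 CPM with DMSO, 4.62, 6.8 and 7.36 CPM with A-241, 8.58, 15.8 and 9.07 CPM with IFNγ, and 8.03, 5.53 and 6.17 CPM with A-241 and IFNγ. Its log2 fold change was −0.95 ± 0.21 (SE; adjusted p = 0.00501, edgeR). The call ended without DMSO replicate 3, A-241 replicate 1 or 2, or replicate 2 or 3 with A-241 and IFNγ, at adjusted p of 0.0101 to 0.0163. Without DMSO replicate 3 and IFNγ replicate 2 it was −0.68 and called.

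Col6a2, a chain of the type VI microfibril, had 6.94, 6.93 and 7.24 CPM with DMSO and 4.41, 2.4 and 2.1 CPM with A-241. With IFNγ it had 4.78, 7.73 and 6.46 CPM, and with A-241 and IFNγ 3.47, 4.56 and 4.32 CPM. The log2 fold change was −0.91 ± 0.22 (SE; adjusted p = 0.0088, edgeR). This is the least firm of the 9 calls, since it ended for 10 of 12 left-out libraries, which were all but A-241 replicate 1 and IFNγ replicate 1, at adjusted p of 0.014 to 0.0287. It also ended without DMSO replicate 3 and IFNγ replicate 2 together (−0.84, adjusted p = 0.0122). Its partner chains had log2 fold changes of −0.55 (Col6a3, adjusted p = 0.057) and −0.35 (Col6a1, adjusted p = 0.366) and were not called, and Col6a1 was at 0.03 without these 2 libraries.

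The starts of the called genes can be read in RefSeq. Of the 9, 6 had promoter windows in the RefSeq table of GRCm38.p6, and the 5 whose nearest window starts within 1000 bases of the GENCODE gene start are shown, as the starts of genes lowered by A-241. Each window runs from 250 bases before the RefSeq start to 50 after it, 5′ to 3′ on the gene's strand. The Itgb8 start lies 526 bases inside the GENCODE gene, and the window of Itga9, 105002 bases inside its gene, is not shown. Capitals mark matches on either strand to any of 6 short motifs, the GC box GGGCGG, the CCAAT box CCAAT, the TATA box TATAAA, the AP-1 site TGANTCA, the GAS element TTCNNNGAA and the TEAD site GGAATG. The GC box was in 35.7% of all 32851 windows of this length, the CCAAT box in 37.4%, the TATA box in 13.6%, the AP-1 site in 7.81%, the GAS element in 8.3% and the TEAD site in 14.7%.

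Itga8, chr2:12301895-12302194, minus strand: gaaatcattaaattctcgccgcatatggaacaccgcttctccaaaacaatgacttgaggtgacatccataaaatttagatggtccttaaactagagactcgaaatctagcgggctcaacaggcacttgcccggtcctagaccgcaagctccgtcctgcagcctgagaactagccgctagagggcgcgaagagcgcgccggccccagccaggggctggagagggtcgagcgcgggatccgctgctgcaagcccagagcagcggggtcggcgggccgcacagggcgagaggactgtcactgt
Col17a1, chr19:47691993-47692292, minus strand: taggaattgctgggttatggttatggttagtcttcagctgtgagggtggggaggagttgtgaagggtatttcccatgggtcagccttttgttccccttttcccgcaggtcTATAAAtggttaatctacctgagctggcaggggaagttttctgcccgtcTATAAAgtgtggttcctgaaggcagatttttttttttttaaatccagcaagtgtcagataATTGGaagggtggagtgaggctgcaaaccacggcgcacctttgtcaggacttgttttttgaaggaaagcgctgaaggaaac
Col9a1, chr1:24177360-24177659, plus strand: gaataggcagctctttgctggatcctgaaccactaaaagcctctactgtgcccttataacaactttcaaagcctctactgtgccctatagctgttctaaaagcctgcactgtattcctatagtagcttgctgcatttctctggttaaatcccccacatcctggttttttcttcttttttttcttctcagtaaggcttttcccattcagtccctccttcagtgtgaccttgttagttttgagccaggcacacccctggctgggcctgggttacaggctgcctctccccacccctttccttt
Itgb8, chr12:119238227-119238526, minus strand: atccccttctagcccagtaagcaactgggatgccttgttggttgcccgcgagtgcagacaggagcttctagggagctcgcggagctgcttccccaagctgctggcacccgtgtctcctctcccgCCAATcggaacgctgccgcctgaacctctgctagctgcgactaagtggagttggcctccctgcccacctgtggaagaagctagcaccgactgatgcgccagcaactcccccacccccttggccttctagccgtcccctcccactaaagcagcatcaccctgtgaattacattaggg
Col6a2, chr10:76623581-76623880, minus strand: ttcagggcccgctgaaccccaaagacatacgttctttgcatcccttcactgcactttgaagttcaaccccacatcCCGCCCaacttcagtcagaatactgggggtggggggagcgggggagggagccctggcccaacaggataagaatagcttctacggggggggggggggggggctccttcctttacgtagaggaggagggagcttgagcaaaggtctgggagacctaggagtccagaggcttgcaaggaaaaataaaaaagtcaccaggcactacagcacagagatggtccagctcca

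The Itga8 window holds none of the 6 motifs, and it holds 23 CpG dinucleotides, against a median of 7 over all windows. The Itgb8 window has 1 CCAAT box and 13 CpG, and that of Col17a1 has 2 TATA boxes, 1 CCAAT box and 5 CpG. The Col6a2 window has 1 GC box and 6 CpG, and that of Col9a1 has none of the motifs and 0 CpG. No motif was found in all 5 windows. A match is a match of letters only.

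Several other genes lay just past the threshold with A-241. Col7a1 had a log2 fold change of −1.09 (adjusted p = 0.0111, edgeR), and its libraries with A-241 lay below all 6 without inhibitor. Col11a1 (−0.85, adjusted p = 0.0128), Itgb4 (−0.95, adjusted p = 0.0145) and Itga3 (−0.92, adjusted p = 0.0196) overlapped when both backgrounds are pooled, although for Itga3 the A-241 libraries lay below the others on each background. These 3 had their highest levels in the libraries that stood apart. Without DMSO replicate 3 and IFNγ replicate 2, Col11a1 was called at −0.40 (adjusted p = 0.00897), while Itgb4, at −0.45 (adjusted p = 0.0179), and Itga3, at −0.44 (adjusted p = 0.0424), were not. Col9a3 was called there at −0.51 (adjusted p = 0.00363), against −0.22 (adjusted p = 0.502) with all libraries. In that fit 10 members were called, of a background of 15.5% of all genes in either direction.

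Other members had values near 0. Itgb1, the beta chain shared by most matrix-binding integrins, had 206, 182 and 217 CPM with DMSO and 221, 189 and 199 CPM with A-241. Its averaged log2 fold change was −0.03, with a 95% interval of −0.27 to 0.21. Col18a1 had −0.04 (interval −0.31 to 0.22), Itgb5 0.04 (−0.43 to 0.51) and Itgav −0.18 (−0.58 to 0.21). Without DMSO replicate 3 and IFNγ replicate 2 the signs of Itgb1 (0.05), Itgb5 (−0.16) and Itgav (0.02) turned. Col3a1, with fewer counts, had 0.03 and a wider interval of −0.62 to 0.68, and −0.24 without these libraries. For Itgb1 and Col18a1 the intervals leave out the averaged log2 fold changes of all 9 called genes.

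**Figure D3:**
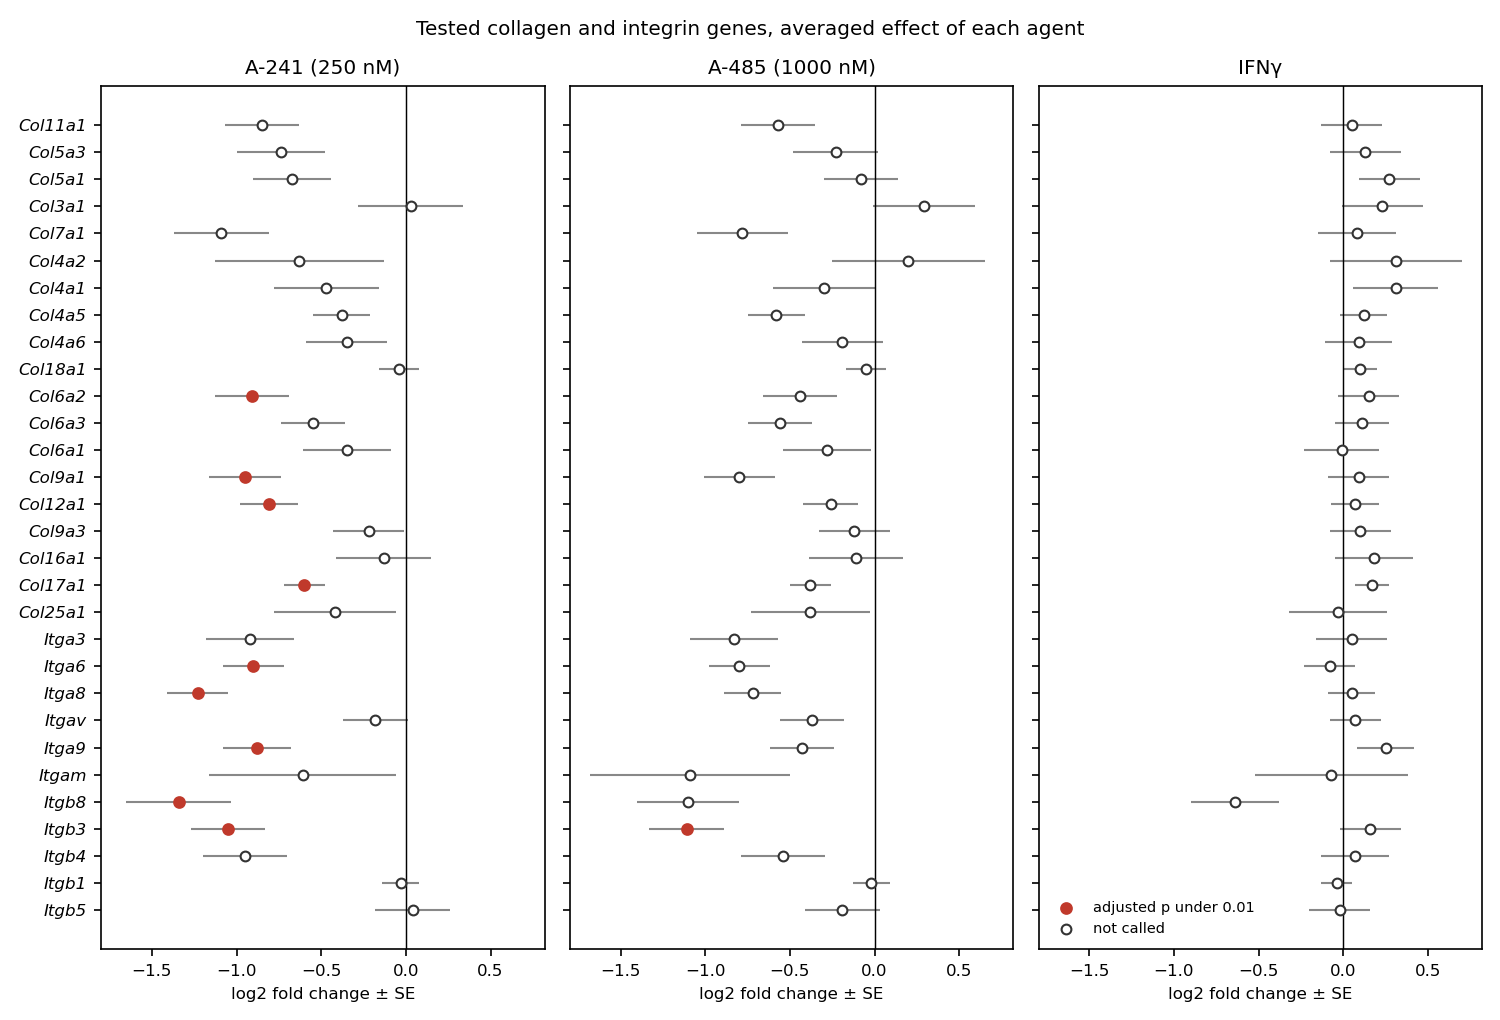
Averaged log2 fold change ± SE (horizontal axis) of the 30 tested genes (vertical axis, by role) in 3 panels, for A-241, for A-485 and for IFNγ, with filled red points for genes called at an adjusted p under 0.01. Called genes number 9 with A-241, 1 with A-485 and 0 with IFNγ.

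With A-485, 1 member was called. Itgb3 fell by 1.11 ± 0.22 on the log2 scale averaged over both backgrounds (SE; adjusted p = 0.00515, edgeR), and it fell by 1.67 ± 0.31 against DMSO (SE; adjusted p = 0.00941, edgeR). Over all genes, 2.39% were called lower and 0.201% higher averaged over both backgrounds, and 0.619% were lower against DMSO. The averaged call ended for 6 of 12 left-out libraries (DMSO replicates 1 and 3, A-485 replicates 1 and 3, and replicates 1 and 3 with A-485 and IFNγ), at adjusted p of 0.01 to 0.0195. The call against DMSO ended for each of the 6 libraries of that comparison, at adjusted p of 0.0107 to 0.0736. Without DMSO replicate 3 and IFNγ replicate 2 the averaged calls numbered 4, with Itgb3 at −0.91, Itgb8 at −1.32, Itga6 at −0.47 and Itga8 at −0.80, of a background of 5.38% of all genes in either direction. Among these, Itgb8 was tested through libraries without inhibitor. In the same fit Itgb3 with A-485 had −1.54 against DMSO (adjusted p = 0.00235, edgeR). With IFNγ it had −0.29 (adjusted p = 0.562, edgeR).

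Itga8 had 4.76, 4.76 and 3.25 CPM with A-485 and 4.39, 3.86 and 4.55 CPM with A-485 and IFNγ. All 6 lay below the 6 libraries without inhibitor, and its log2 fold change of −0.72 (adjusted p = 0.0179, edgeR) was not called. Itga6 had −0.80 (adjusted p = 0.0157) and Col9a1 −0.80 (adjusted p = 0.0332). The median over the 30 genes was −0.38, against −0.02 over all genes, and 28 were below 0. The exceptions were Col3a1 at 0.29 (adjusted p = 0.601) and Col4a2 at 0.20 (adjusted p = 0.826). Without DMSO replicate 3 and IFNγ replicate 2, 25 of the 30 were below 0, with a median of −0.36. Col4a5 had −0.58 (adjusted p = 0.0571), with all 6 libraries below those without inhibitor. The A-485 and A-241 comparisons share their DMSO and IFNγ libraries, so their likeness is no separate evidence.

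The direct comparison of A-241 with A-485, averaged over both backgrounds, called 0 of the 30 members in edgeR, DESeq2 and limma-voom, with 3 at an unadjusted p under 0.05 in edgeR and 1.25% of all genes called. The smallest p was that of Col12a1, at −0.56 with A-241 relative to A-485 (95% interval −0.91 to −0.20, adjusted p = 0.121, edgeR). Itga8 followed at −0.52 (interval −0.90 to −0.14, adjusted p = 0.204) and Col5a1 at −0.59 (interval −1.08 to −0.11, adjusted p = 0.272). For Itgb3 the difference was 0.06, with an interval of −0.42 to 0.54. These intervals are not adjusted for the 30 members. The larger number of members called with A-241 is therefore not shown to be a difference between the compounds, and their doses differ.

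Each inhibitor was tested both without and with IFNγ, on libraries that the comparisons do not share. Each reference group held a library that stood apart, and some members were high or low in both of these. Likeness between the backgrounds is therefore not fully separate evidence. With A-241, 24 of 30 members (80%) were lower on both backgrounds, 1 was higher on both and 5 had opposite signs, where 39.5% of all genes were lower on both. With A-485, 22 (73.3%) were lower on both, against 35.3% of all genes. Between the backgrounds, the members' fold changes had a Pearson correlation of 0.26 with A-241 and 0.09 with A-485. Over all genes it was 0.72 and 0.48. A correlation also depends on the range of the changes and on counting noise, which were not allowed for. These values therefore do not measure a dependence on IFNγ. Without DMSO replicate 3 and IFNγ replicate 2, 20 of 30 members were lower with A-485 and IFNγ than with IFNγ, with a median of −0.12. Against DMSO, A-241 gave 2 called members, Itga8 and Itgb3, beside 3.53% of all genes called lower. Without DMSO replicate 3 and IFNγ replicate 2, Itga6 (−0.78, adjusted p = 0.00107) and Itgb4 (−0.83, adjusted p = 0.00546) were called as well, beside 8.13% of all genes called in either direction. With IFNγ it gave 0 in edgeR, DESeq2 and limma-voom, with 11 at an unadjusted p under 0.05 in edgeR and 3.54% of all genes called lower. The nearest were Itgb8 (−1.94, adjusted p = 0.0135) and Itga8 (−1.02, adjusted p = 0.0149), which were both called without IFNγ replicate 2 and DMSO replicate 3 (adjusted p = 0.00377 and 0.00706). A-485 with IFNγ against IFNγ also gave 0 by each tool, with 8 at an unadjusted p under 0.05 in edgeR and 0.535% of all genes called lower.

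**Figure D4:**
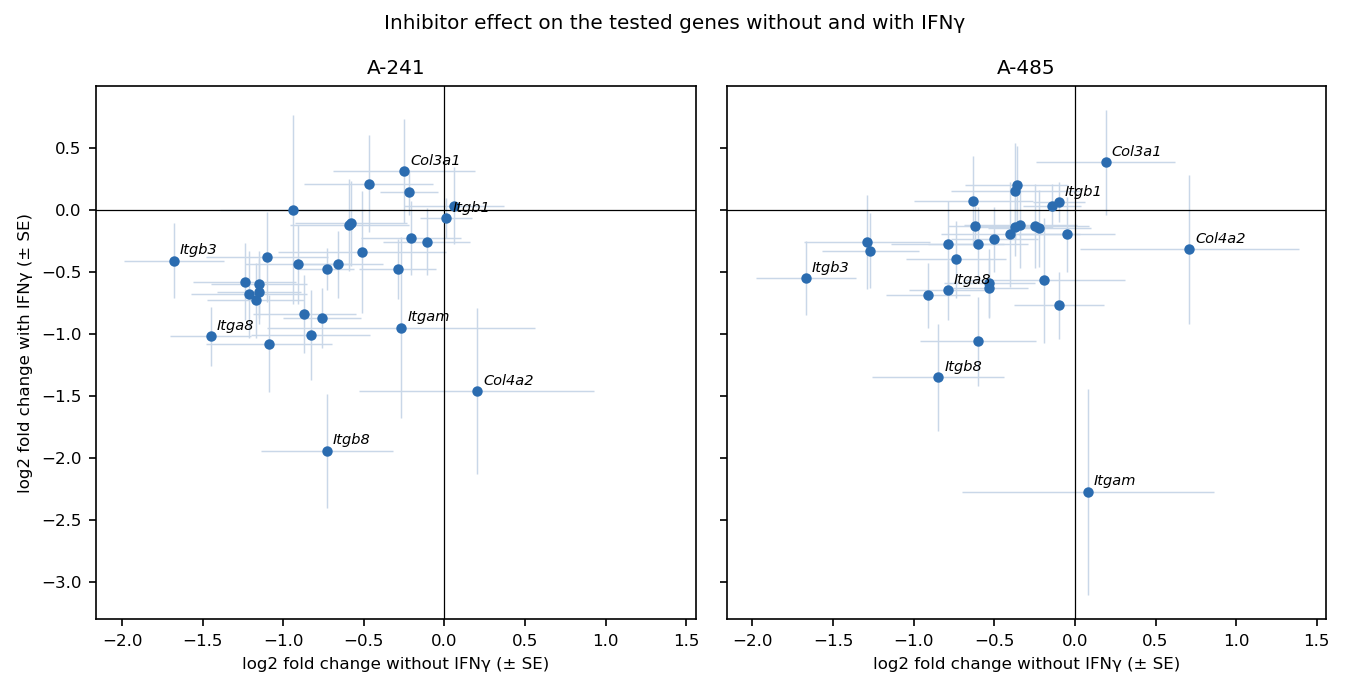
Log2 fold change ± SE of the 30 tested genes with an inhibitor relative to DMSO (horizontal axis) and, with IFNγ, relative to IFNγ alone (vertical axis), for A-241 (left) and A-485 (right). Most points lie in the lower left, 24 of 30 in the left panel and 22 in the right, and Itgb8 lies lower with IFNγ than without it.

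The difference between the backgrounds was tested itself. No member was called in the interaction of A-241 with IFNγ (edgeR, DESeq2 and limma-voom; 1 at an unadjusted p under 0.05 in edgeR; 0.0334% of all genes called) or in that of A-485 with IFNγ (0 by each tool, 2 unadjusted in edgeR, 0% of all genes). The smallest p in the A-241 interaction was that of Itgb3, at 1.28 ± 0.43 (SE; adjusted p = 0.916, edgeR). The smaller loss of Itgb3 on the IFNγ background is thus not shown to differ.

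IFNγ called no member. Against DMSO, 0 of 30 were called by edgeR, DESeq2 and limma-voom, with 1 at an unadjusted p under 0.05 in edgeR, and 1.3% of all genes were called. Averaged over the 3 backgrounds the members' count was again 0 by each tool, with 1 unadjusted in edgeR and 2.01% of all genes called. Against DMSO the members' median log2 fold change was −0.07, with 20 of 30 below 0. Averaged it was 0.09, with 7 of 30 below 0. Of all genes, 50.3% and 50.4% were below 0 in these comparisons. The smallest p was that of Itgb8, at −0.64 (adjusted p = 0.372, edgeR). For Itgb1 the 95% interval was −0.24 to 0.16, and for Col18a1 −0.12 to 0.32.

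The libraries that stood apart touched the members unevenly. In DMSO replicate 3, 5 of the 30 tested genes lay more than 1 above the mean of the other libraries of the condition on the log2 scale and 2 lay more than 1 below it. In IFNγ replicate 2 these numbers were 8 and 4. Over all genes, 30.6% and 34% deviated by more than 1, against 23.3% and 40% of the members. Col16a1 was low in both (29.2, 18.6 and 6.55 CPM with DMSO, and 17.8, 7.73 and 21.1 CPM with IFNγ). Itgb4, the beta chain of the hemidesmosome, was high in both (56.2, 39.1 and 96.2 CPM, and 38.5, 90.4 and 29.1 CPM).

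**Figure D5:**
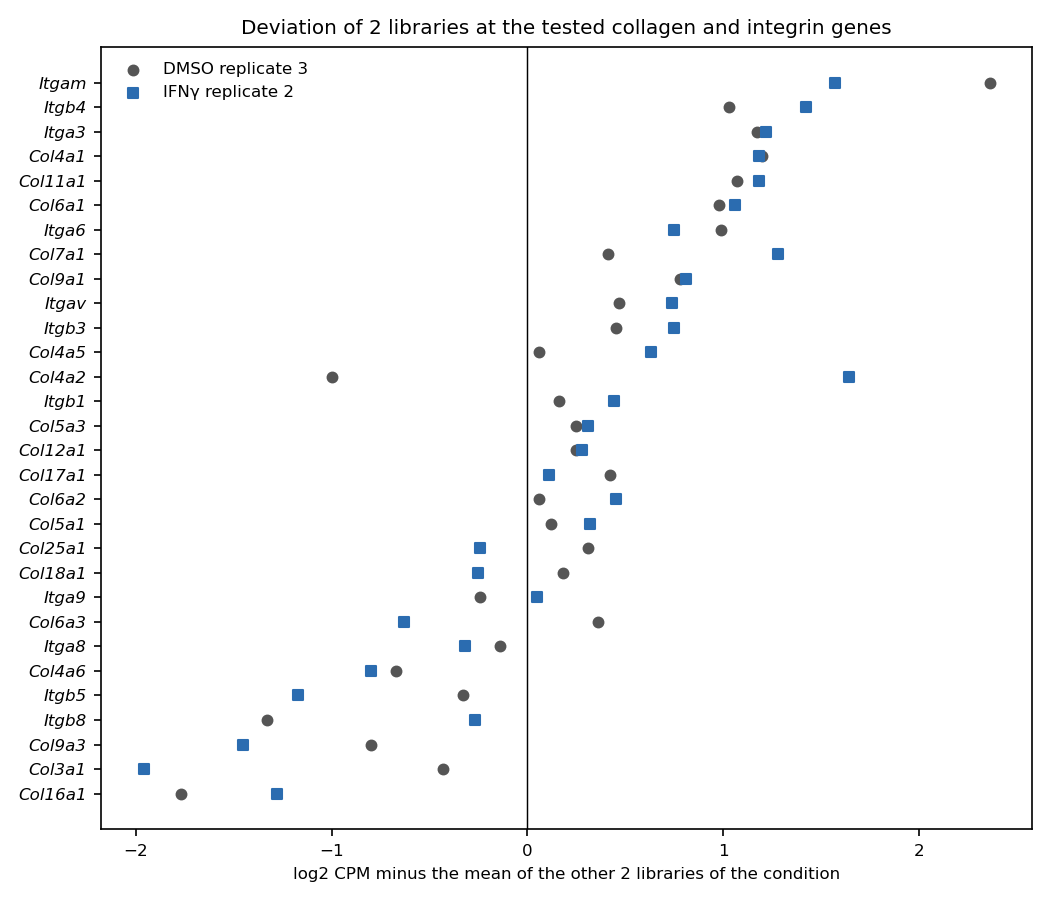
Deviation (horizontal axis, log2 CPM) of DMSO replicate 3 (circles) and IFNγ replicate 2 (squares) from the mean of the other libraries of their condition, for the 30 tested genes (vertical axis). Itgam, Itgb4, Itga3, Col4a1 and Col11a1 are high in both and Col16a1 is low in both.

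The leukocyte chains had few counts. Itgal and Itgb7 were highest in A-485 replicates 1 and 3, which had the most counts of the leukocyte marker Ptprc. Itgal had 8 counts in A-485 replicate 1 and 7 in replicate 3, and Itgb7 had 5 and 15 in these libraries. Itgb2, the beta chain of most leukocyte integrins, had at most 3 counts in any library. Ptprc (CD45), a marker of all leukocytes, had 37 and 73 counts in the same libraries, 1 in A-485 replicate 2 and at most 6 in any DMSO library. Lyz2, the most counted leukocyte marker, had 178 and 72 counts in A-485 replicates 1 and 3. It also had 126 in replicate 3 with A-241 and IFNγ, where Itgal had 1 count and Itgb7 had 2. Itgam had 19 counts in A-485 replicate 2, where Ptprc had 1. The summed leukocyte markers were 9.52 to 38.9 CPM with A-485 and 1.58 to 14.8 CPM with DMSO. High sums were not confined to A-485. They reached 10.9 CPM with A-241, 27.9 CPM with IFNγ, 28.2 CPM with A-241 and IFNγ, and 18.9 CPM with A-485 and IFNγ. Itgam had 0.21, 1.1 and 4.48 CPM with DMSO, 1.96, 6.54 and 1.92 CPM with IFNγ, and 0.881, 3.62 and 0.696 CPM with A-485. Its averaged log2 fold change with A-485 was −1.09 (adjusted p = 0.302, edgeR) and −0.15 (adjusted p = 0.886) without DMSO replicate 3 and IFNγ replicate 2, where its highest values lie. Against DMSO alone it went from 0.08 to 1.25 (adjusted p = 0.397). The part of leukocyte RNA in these values was not tested.

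Genes that work with collagens and integrins were read from lists chosen by function, with the same threshold in edgeR on the effect averaged over both backgrounds. Their values come from all 18 libraries, so the weight of DMSO replicate 3 and IFNγ replicate 2 in them is not shown. Over all genes, 7.05% were called lower and 3.39% higher with A-241, and 2.39% lower with A-485. Of 16 tested matrix ligands, A-241 lowered 5 and raised none. Thbs1 (thrombospondin) fell by 3.84 on the log2 scale, Lama4 (a laminin chain) by 1.79, Fn1 (fibronectin) by 0.56, Postn (periostin) by 0.62 and Ccn2 by 2.72. Of these, Thbs1 and Lama4 also fell with A-485, by 1.76 and 0.96. Among 27 tested intracellular proteins of integrin adhesion, A-241 lowered 6 (Tns4, Nedd9, Fermt1, Tln2, Kank2 and Tns3) and raised none, and A-485 lowered Tns4 and Nedd9. The largest was Nedd9, an adaptor of focal adhesions, which fell by 3.60 with A-241 and by 2.20 with A-485. The mean of Tns3 reached the filter's 2.05 CPM with DMSO (2.8 CPM) and IFNγ (3.07 CPM) and in no condition with an inhibitor. Its fall is therefore in part set by the filter.

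Of 9 tested matrix proteases and inhibitors, A-241 lowered 2, namely Timp3, by 2.12, and Mmp14, the membrane collagenase, by 1.12. Timp3, an inhibitor of metalloproteinases, also fell by 1.36 with A-485, and by 0.43 with IFNγ averaged over its backgrounds (adjusted p = 0.00134, edgeR). For the 23 tested enzymes of collagen synthesis and cross-linking, the counts were near those shares. With A-241, 2 fell, P3h2 (a prolyl hydroxylase) by 1.12 and Loxl4 (a lysyl oxidase) by 1.90, and Mia3, needed for collagen export, rose by 0.57. Loxl4 also fell by 1.38 with A-485. The 3 tested receptors for collagen outside the integrin family gave no call in edgeR (1 with A-241 at an unadjusted p under 0.05, and 0 with A-485), and Ddr1, a receptor kinase, had −1.39 with A-241 (adjusted p = 0.0262, edgeR).

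Some marker genes of cell state moved in the same comparison, and their values are also from all 18 libraries. With A-241, Krt14 fell by 1.21, Krt18 by 0.67 and Vim (vimentin, a mesenchymal marker) by 0.74 on the log2 scale. The other tested mesenchymal markers were not called, with 0.44 for Twist1 (adjusted p = 0.246, edgeR) and −0.21 for Cdh2 (adjusted p = 0.258). Pdgfra, a fibroblast marker, had a mean of 2.61 CPM with DMSO and 0.2 CPM with A-241. Its mean reached the filter's 2.05 CPM with DMSO and in no other condition, so its log2 fold change of −2.76 is in part set by the filter. With A-485, Krt14 fell by 0.94. The other tested epithelial markers were not called with A-241. Cdh1 had −0.17 (adjusted p = 0.595, edgeR), Epcam 0 (adjusted p = 0.995), Krt8 −0.24 (adjusted p = 0.125) and Krt5 −0.45 (adjusted p = 0.0625). Summed over their chains, collagens were at 342 ± 66.8 CPM with DMSO (SD, n = 3 libraries) and 213 ± 7.02 CPM with A-241, and integrins at 502 ± 125 and 355 ± 7.71 CPM. These sums rest largely on the genes with the most counts. Means with DMSO and A-241 were 127 and 69.6 CPM for Col11a1, 150 and 67.6 for Itga6, and 202 and 203 for Itgb1. DMSO replicate 3 was the highest in both sums, and without it the DMSO means were 306 CPM for collagens and 432 CPM for integrins. Collagens were at 329 CPM with IFNγ and 232 CPM with A-241 and IFNγ, and integrins at 455 and 350 CPM. Without IFNγ replicate 2, the IFNγ means were 292 CPM for collagens and 380 CPM for integrins. The part of cell state in the members' values was not tested.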

How the data were processed

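Counts of 43629 genes in 18 QuantSeq libraries of AT3 cells were used as the authors deposited them, as whole numbers without normalization. Per the submitters' processing notes and the study's methods, reads were demultiplexed with bcl2fastq 2.17.1.14, checked with FastQC 0.11.5, trimmed with cutadapt 1.7, aligned to GRCm38 (mm10) with HISAT2 2.1.0 and counted on exons with featureCounts. Reads over several genes were counted for each, with no strand setting stated, so that overlapping and antisense genes share reads. The annotation release is not given in the sources used here. Depth was 3417167 to 7856830 counts, at which 3 counts correspond to 0.382 to 0.878 CPM. The 3 libraries of a condition differed by more than sampling noise.

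Gene identifiers were joined to GENCODE vM21, which held 42548 (97.5%) of them, and the others held 0.403% of counts. The filter on low counts was filterByExpr, grouped by condition, which kept 11964 genes. With TMM factors, all 18 libraries entered 1 glmQLFit model of 6 condition means, whose contrasts were tested with glmQLFTest (edgeR 4.0.16, R 4.3.3). Benjamini-Hochberg adjustment covered every gene kept, and calls needed an adjusted p under 0.01. Standard errors were taken from the fold change and its F statistic, and intervals are at 95%. Alternatives were DESeq2 1.42.0, limma-voom (limma 3.58.1), other filters and scalings, a replicate block, separate fits of the groups in a comparison, a threshold of 0.05, each library left out, and both Gm42418-rich libraries left out. The method was also run on simulated counts, with the same dispersion for every gene and without libraries that stand apart. That run does not show how the method behaves with such libraries. Promoter windows came from the RefSeq table of GRCm38.p6 (for each gene the window nearest its GENCODE start), and figures were drawn in Python 3.11.15 with matplotlib 3.10.9.

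Every called member was named, with the most counted tested members of each role group and, from each functional and marker list, up to 3 genes called and up to 3 with the most counts. Other called genes of those lists, Col1a1, Col1a2, Itga5 and the leukocyte chains were named after their values were seen. The members, lists and alternatives were chosen with earlier results of these data known. Same-numbered libraries of different conditions did not deviate together (correlations of −0.8 to 0.48, median −0.02), so no pairing was assumed.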

Additional observations from a re-analysis of the deposited data

How the results depend on the processing

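No called member changed direction under the alternatives run. Of members not called with A-241 averaged over both backgrounds, 6 changed sign without both Gm42418-rich libraries, to 0.05 for Itgb1, 0.02 for Itgav, −0.16 for Itgb5, −0.24 for Col3a1, 0.03 for Col6a1 and 0.33 for Itgam, and with A-485 averaged 3 did, to 0.11 for Col6a1, 0.15 for Col4a1 and 0.06 for Itgb1. In A-241 averaged over both backgrounds, 9 members were called, and this was 3 in a fit of only the groups compared and 14 at an adjusted p under 0.05. Itga8, Itgb3 and Col12a1 were called there in all 11 alternative settings. In A-241 against DMSO the 2 calls became 6 with DESeq2, 0 in a fit of only the groups compared, 8 at an adjusted p under 0.05 and 4 without both Gm42418-rich libraries. In A-485 against DMSO the 1 call became 2 with DESeq2 and 2 at an adjusted p under 0.05, and 0 with the replicate block and in a fit of only the groups compared. In A-485 averaged over both backgrounds the 1 call became 4 with DESeq2, 2 with no filter on low counts, 5 at an adjusted p under 0.05 and 4 without both Gm42418-rich libraries, and 0 with the replicate block and in a fit of only the groups compared. In A-241 with IFNγ against IFNγ the 0 calls became 3 at an adjusted p under 0.05 and 2 without both Gm42418-rich libraries. The fits of only the groups compared hold fewer libraries and tested 25 to 30 members, and the cause of the other changes was not tested. With 1 library left out, the calls ranged from 0 to 4 in A-241 against DMSO, from 5 to 10 in A-241 averaged and from 0 to 2 in A-485 averaged, were 0 throughout in A-485 against DMSO, and stayed at 0 in the 7 other comparisons. Scaling by total counts moved the median of all genes with A-241 averaged to 0.13 and that of the members to −0.48, with 26 of 30 below 0. Itgb8 and Itga9 had at most 26 and 32 counts in a library, and their values are limited by depth.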
